A study of Mus musculus with 6 samples.

Results

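The receptors for epidermal growth factor (EGF) and fibroblast growth factor (FGF) were examined in mouse neural stem cell lines, together with the PDGF receptor beta gene. The set holds 9 genes taken by name: the ErbB receptors Egfr, Erbb2, Erbb3 and Erbb4, the FGF receptors Fgfr1, Fgfr2, Fgfr3 and Fgfr4, and Pdgfrb. They were read on 26 probe sets, each annotated to 1 of these genes only, out of 45037 non-control probe sets and 18193 named genes on the array. RNA from 3 lines with the FoxO-null label and 3 with the wild-type label, which the design text calls independent, was hybridised to 1 array per line. FoxO proteins are transcription factors that growth factor and insulin signalling holds out of the nucleus, and the study set lines labelled as lacking them beside wild-type ones. The labels give no strain, age, passage, culture medium or method of deletion, and they do not say which FoxO genes were removed.

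These receptors are tyrosine kinases of the cell surface. A ligand brings receptor chains together, the chains phosphorylate each other, and adaptor proteins then pass the signal to the Ras-ERK and PI3-kinase-Akt routes, the second of which keeps FoxO proteins out of the nucleus. Neural stem cells are commonly kept dividing in culture with EGF and FGF2, which act mainly through EGFR and FGFR1 in these cells. ERBB2 has no known ligand of its own and serves as a partner chain, ERBB3 has very weak kinase activity, and ERBB3 and ERBB4 bind neuregulins.

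The labels were checked against the signals first. Of 9 probe sets for Foxo1, Foxo3 and Foxo4, 8 had a positive difference (FoxO-null minus wild-type), against 53.5% of all probe sets. In 5 of the 9, all 3 arrays labelled FoxO-null lay above all 3 labelled wild-type, against 6.95% of all probe sets. For instance, 1 of the 2 Foxo4 probe sets read 178, 57.2 and 189.9 in FoxO-null lines and 5.56, 4.14 and 17.1 in wild-type lines (log2 difference 3.24 ± 0.48, limma adjusted p 0.0882), against the label. A probe set that lies outside a deletion cannot check it, and where these lie is not known here. The groups are therefore called by their labels throughout, and every direction below follows those labels. All 11 neural stem and radial glia markers examined, among them Nes, Sox2 and Vim, were above the control level on all 6 arrays. That level is the highest signal of 27 Bacillus subtilis control probe sets on an array. It was 19.2, 27.6 and 26.9 on FoxO-null 1 to 3 and 14.4, 15.8 and 19.1 on wild-type 1 to 3, so it went with the labels. Wild-type 1 also stood apart in an 18S rRNA control, at 211 against 23.5 to 38.9 on the other arrays.

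None of the 26 receptor probe sets passed the test between the labelled groups. On simulated arrays 18.4% of 2-fold changes were called, so not passing does not show that a level was unchanged. Fgfr3 had the largest differences per standard error, with folds (FoxO-null over wild-type) of 1.51 and 1.36 on its 2 probe sets. Egfr levels on its brighter probe sets were close to equal. On the 2 brighter probe sets of each, Fgfr1 and Fgfr2 ranged less widely among FoxO-null lines than among wild-type lines. Wild-type 1 was the lowest wild-type line on each of these. The dimmest Fgfr1 probe set ranged more widely among FoxO-null lines. Erbb3, Erbb4, Fgfr4 and Pdgfrb lay near or under the control level. In bulk RNA, a change in the number of cells that express a gene and a change in RNA per cell cannot be told apart.

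In numbers, 0 receptor probe sets passed a Benjamini-Hochberg adjusted p under 0.05 in limma, in either direction, where 0.00222% of all probe sets did. An unadjusted limma p under 0.05 was reached by 3 of 26, or 11.5%, against 7.24% of all probe sets. Of these, 2 were higher (both of Fgfr3; 3.90% of all probe sets) and 1 was lower (Egfr 1432647_at; 3.33%). The groups did not overlap in 4 of 26, or 15.4%, against 12.6% of all probe sets. Of these 4, 2 were higher (Fgfr3 1425796_a_at and Pdgfrb 1417148_at; 6.95% of all) and 2 were lower (Fgfr1 1424050_s_at and Egfr 1432647_at; 5.67% of all). These shares are near those of the array as a whole. The difference was positive in 13 probe sets, or 50%, against 53.5% of all probe sets, and negative in 13.

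**Figure D1:**
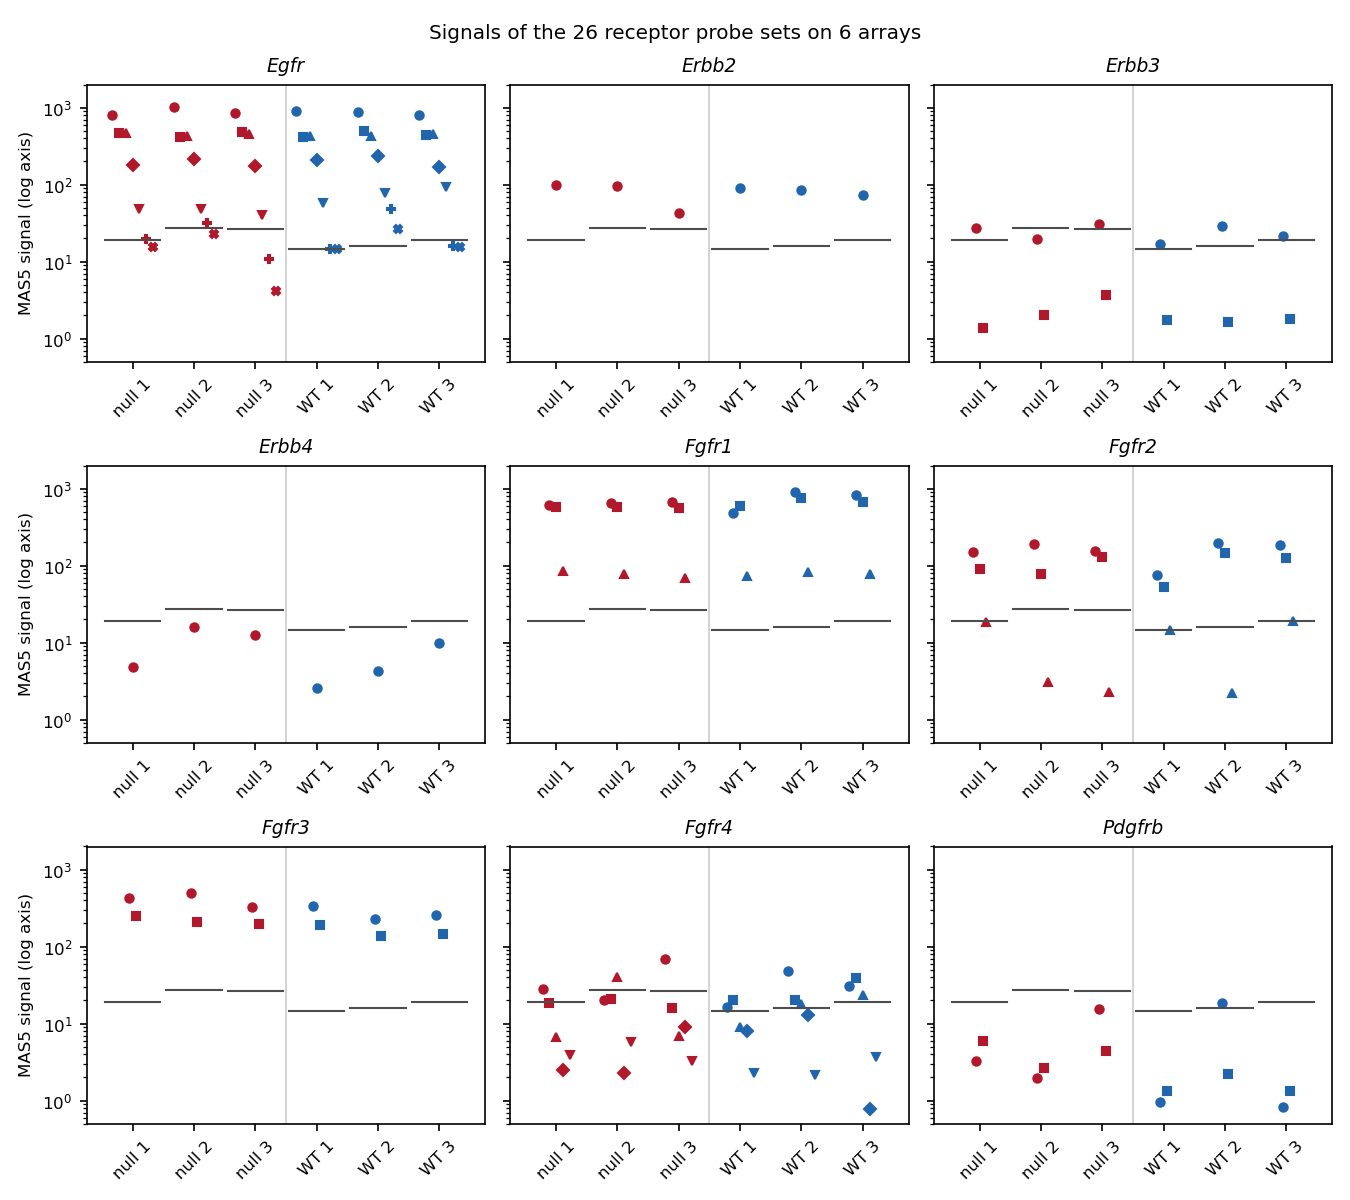
MAS5 signal (log axis) of every receptor probe set on each of the 6 arrays, with the FoxO-null label in red on the left and the wild-type label in blue on the right. Each marker shape is 1 probe set of the gene, in order of mean brightness from left to right, and the horizontal bars are the highest bacterial control of each array. Egfr, Erbb2, Fgfr1, Fgfr2 and Fgfr3 each have probe sets above the bars on all 6 arrays, and Erbb3, Erbb4, Fgfr4 and Pdgfrb have none.

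Egfr, the receptor for EGF and TGF-alpha, was measured by 7 probe sets. On the brightest, 1435888_at, the signal was 792, 1015 and 864 in FoxO-null 1 to 3 and 911, 889 and 815 in wild-type 1 to 3. The highest and the lowest of the 6 lines both carried the FoxO-null label, so the groups overlapped fully. Means were 890.2 ± 114 in FoxO-null lines and 872 ± 50.6 in wild-type lines (SD, n = 3 each). The log2 difference was 0.024 ± 0.12 (SE, limma adjusted p 0.984). The 95% interval of that fold ran from 0.848 to 1.22, so a change of 1.5-fold either way lies outside it.

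The other bright Egfr probe sets gave the same picture. Probe set 1460420_a_at read 466, 421 and 479 in FoxO-null lines and 420.0, 498 and 439 in wild-type lines. Probe set 1424932_at read 469.6, 422 and 454 in FoxO-null lines and 432, 424 and 454 in wild-type lines. For 1451530_at the signals were 179, 218 and 177 in FoxO-null lines and 207, 236 and 169.5 in wild-type lines. Their log2 differences were 0.011 ± 0.12, 0.038 ± 0.11 and -0.083 ± 0.16, and all 3 intervals lay between 0.745-fold and 1.21-fold.

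A dimmer Egfr probe set read lower in the lines labelled FoxO-null. Probe set 1432647_at read 48.0, 49.0 and 39.8 in FoxO-null 1 to 3 and 57.2, 77.7 and 93.7 in wild-type 1 to 3. All 3 lines labelled FoxO-null were below all 3 labelled wild-type, and wild-type 3 was the highest. The log2 difference was -0.65 ± 0.25 (unadjusted limma p 0.0247, adjusted 0.612), and the exact permutation test gave a two-sided p of 0.1, the smallest that 3 lines against 3 allow. The remaining 2, 1454313_at and 1457563_at, had signals of 4.13 to 31.4 in FoxO-null lines and 14.6 to 48.6 in wild-type lines and crossed the control level. Of these, 1454313_at is annotated to the same source sequence as 1432647_at, and its groups overlapped (log2 difference -0.20 ± 0.51). The bright probe sets are annotated to other source sequences. The position of each probe set within the transcript was not used here, so whether 1432647_at reads the same transcripts as the bright ones is not known.

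The 250 bases upstream of the annotated Egfr start (RefSeq, GRCm38.p6, chr11:16751953-16752202, plus strand) and of the first annotated Fgfr3 start (chr5:33721474-33721723, plus strand) are shown because Egfr is the EGF receptor itself and Fgfr3 had the largest difference per standard error of the set. Capitals mark the GC box, GGGCGG or its complement CCGCCC.
Egfr: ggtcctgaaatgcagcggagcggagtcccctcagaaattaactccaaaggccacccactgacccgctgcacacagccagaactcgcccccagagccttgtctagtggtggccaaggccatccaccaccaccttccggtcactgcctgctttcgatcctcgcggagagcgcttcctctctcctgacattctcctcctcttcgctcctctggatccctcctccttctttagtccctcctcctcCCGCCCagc
Fgfr3: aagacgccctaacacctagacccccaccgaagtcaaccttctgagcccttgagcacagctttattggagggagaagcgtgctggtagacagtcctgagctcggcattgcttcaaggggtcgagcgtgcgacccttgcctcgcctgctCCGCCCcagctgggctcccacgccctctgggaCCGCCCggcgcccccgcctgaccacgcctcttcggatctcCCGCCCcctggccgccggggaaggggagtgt

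The core FoxO binding motif GTAAACA, searched on both strands, was in neither of these windows. The search covered 7 upstream windows for 6 of the 9 genes (Egfr, Erbb2, Erbb4, Fgfr2, Fgfr3 with 2 starts, and Fgfr4). The Erbb4 window and the second Fgfr3 window lie before an annotated start but inside the annotated span of the gene. Fgfr1 and Erbb3 had no window, and receptor windows on chromosome 18, where Pdgfrb lies, were left out of the search. The motif was in 0 of the 7, where 3.17% of 32851 windows of the same length, chromosome 18 included, hold it. This says only that these letters are not in these windows. The Egfr window held 1 GC box and the Fgfr3 window 3, and 32.7% of all windows have at least 1. The Egfr window was 60.8% G and C and the Fgfr3 window 66.8%, against a median of 52.4% over all windows. The Fgfr2 window was the poorest of the 7, at 44%. No TATAAA was found in any of the 7 on either strand, and 12.4% of all windows hold it.

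Erbb2, the partner chain of the family, was read by 1 probe set, 1424919_at. Its signal was 99.0, 97.4 and 42.4 in FoxO-null 1 to 3 and 91.2, 84.9 and 73.9 in wild-type 1 to 3. FoxO-null 3 was the lowest of the 6 lines and the other 2 lines labelled FoxO-null were the highest. Their log2 difference was -0.14 ± 0.29 (limma adjusted p 0.953, 95% interval of the fold 0.588 to 1.40) and was 0.23 without FoxO-null 3, so its direction rested on that line.

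The neuregulin receptors were weak. Erbb3, which with Erbb2 drives growth of Schwann cells and their precursors, read 27.2, 19.6 and 31.2 in FoxO-null lines and 16.9, 28.8 and 21.3 in wild-type lines on probe set 1434606_at. It was above the control level on 2 of the 3 arrays labelled FoxO-null and on all 3 labelled wild-type, and the groups overlapped (log2 difference 0.18 ± 0.40, limma adjusted p 0.958). The other Erbb3 probe set, 1452482_at, stayed at 3.74 or less on every array. Erbb4, a neuregulin receptor of neurons and heart muscle, read 4.88, 16.02 and 12.5 in FoxO-null lines and 2.54, 4.33 and 9.76 in wild-type lines on 1427783_at, under the control level on all 6 arrays. No fold is given for it.

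Among the FGF receptors, Fgfr3 had the largest difference per standard error, and it did not pass the adjusted threshold. FGFR3 is known in the nervous system from the ventricular zone and from astrocytes. On 1421841_at the signal was 429, 498 and 331 in FoxO-null 1 to 3 and 336, 231 and 259 in wild-type 1 to 3. In order of level, FoxO-null 2 and FoxO-null 1 came first, wild-type 1 and FoxO-null 3 were nearly level with each other, and wild-type 3 and wild-type 2 were lowest. Means were 419 ± 83.9 in FoxO-null lines and 275 ± 54.2 in wild-type lines (SD, n = 3 each). The log2 difference was 0.59 ± 0.17, a fold of 1.51 with a 95% interval of 1.16 to 1.96 (unadjusted limma p 0.00463, adjusted 0.427).

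The second Fgfr3 probe set, 1425796_a_at, read 247, 206 and 197 in FoxO-null lines and 189.7, 138 and 146 in wild-type lines. Here every line labelled FoxO-null was above every line labelled wild-type, although FoxO-null 3 and wild-type 1 were again close. The log2 difference was 0.45 ± 0.16, a fold of 1.36 (95% interval 1.07 to 1.74, unadjusted limma p 0.0161, adjusted 0.565). The exact permutation test gave a two-sided p of 0.2 for 1421841_at and 0.1 for 1425796_a_at. With any 1 line left out the log2 differences stayed positive, at 0.46 to 0.75 for 1421841_at and 0.35 to 0.58 for 1425796_a_at, and no adjusted p was under 0.280. The probe sets read 1 gene in the same 6 RNA samples and are not 2 separate observations.

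Several marker lists had mostly positive differences, as Fgfr3 did. Of the 8 astrocyte markers listed (Gfap, Aqp4, Aldh1l1, S100b, Slc1a2, Aldoc, Glul and Gja1), all were above the control level on all 6 arrays, 7 had a positive difference and 4 had groups that did not overlap, all 4 higher. Over all genes 53.7% were positive and 7.76% did not overlap and were higher. Their summed signal was 6573 to 7601 in FoxO-null lines and 4549.8 to 5844 in wild-type lines. Of 9 oligodendrocyte lineage markers, 6 were positive and 4 (Sox10, Gpr17, Cnp and Mbp) did not overlap, all higher. Olig1 (log2 difference -0.085) and Olig2 (-0.18) were negative, and Mog was under the control level on every array. The summed signal of the 9 was 17160 to 17913 in FoxO-null lines and 13866 to 15421 in wild-type lines. Of the 11 neural stem markers, 9 were positive and 5 did not overlap, all higher, and Hes5 passed (limma adjusted p 0.0272). Nes (log2 difference -0.36, unadjusted limma p 0.0473) and Vim (-0.079) were negative. The summed signal of the 11 was 32218 to 35510 in FoxO-null lines and 25317 to 33521 in wild-type lines, most of it from Vim and Fabp7. The 7 neuron markers went mostly the other way: 5 were negative, and 2 did not overlap, both lower, where 6.60% of all genes were. The part of these lists in the Fgfr3 result was not tested.

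Fgfr1, the receptor through which FGF2 mainly acts in neural stem cells, was measured by 3 probe sets, all above the control level on every array. On the brightest, 1425911_a_at, the signal was 612, 644 and 664 in FoxO-null 1 to 3 and 478, 911 and 831 in wild-type 1 to 3. The lines labelled FoxO-null lay close together, between the low wild-type 1 and the high wild-type 2 and 3. The log2 difference was -0.15 ± 0.19 (limma adjusted p 0.911). Without wild-type 1 it was -0.44, with an unadjusted limma p of 0.00246 and an adjusted p of 0.408.

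On Fgfr1 1424050_s_at the signal was 581, 579 and 554 in FoxO-null lines and 591, 758 and 666 in wild-type lines. The groups did not overlap, although FoxO-null 1 and wild-type 1 were close. It had a log2 difference of -0.22 ± 0.12 (unadjusted limma p 0.0821, adjusted 0.744). The dimmest, 1436551_at, read 85.5, 79.1 and 68.4 in FoxO-null lines and 74.1, 83.5 and 76.9 in wild-type lines, with a log2 difference of -0.012 ± 0.20 and a fold interval of 0.736 to 1.34.

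Fgfr2, a second FGF receptor of neural progenitors and glia, showed the low wild-type 1 more plainly. On 1433489_s_at the signal was 148, 193 and 153 in FoxO-null lines and 76.1, 195 and 186 in wild-type lines. On 1420847_a_at it was 90.7, 76.9 and 129.75 in FoxO-null lines and 52.6, 145 and 125 in wild-type lines. Wild-type 1 was the lowest line on both, and wild-type 2 the highest on both, so the whole range lay within the wild-type label. The log2 differences were 0.21 ± 0.29 and -0.033 ± 0.32 (limma adjusted p 0.920 and 0.993). Without wild-type 1 they were -0.21 and -0.46. The 18S rRNA control that was high on wild-type 1 is given above, and its part in the low Fgfr1 and Fgfr2 signals of that line was not tested. The third Fgfr2 probe set, 1443211_at, read 2.26 to 18.6 in FoxO-null lines and 2.19 to 19.0 in wild-type lines, at or under the control level on all arrays but wild-type 1, where it read 14.5.

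**Figure D2:**
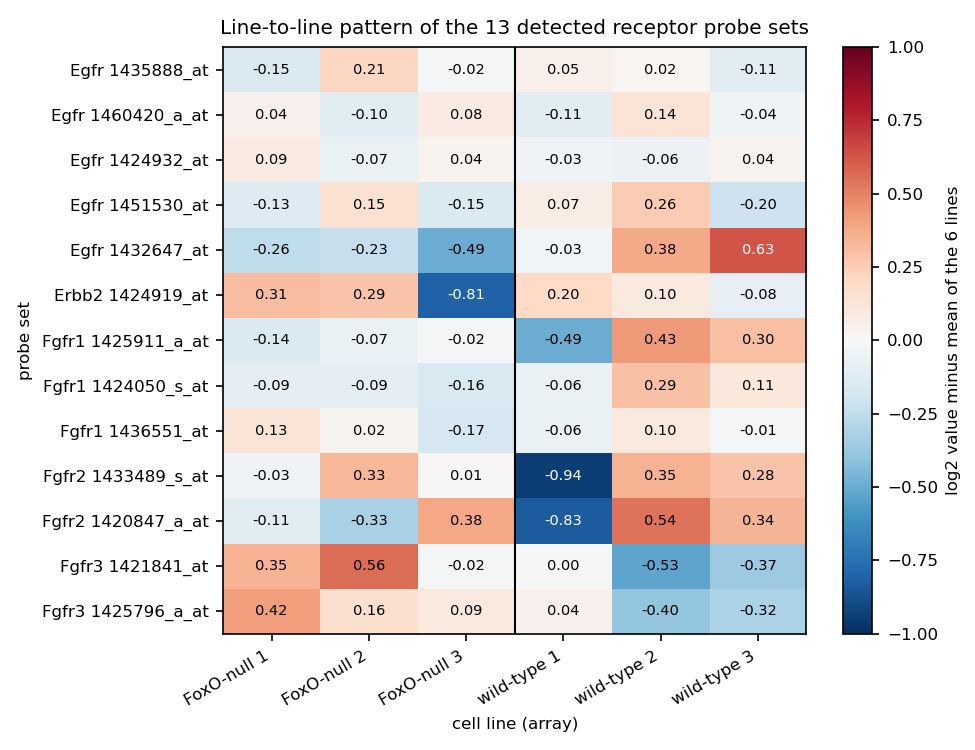
Log2 value of each receptor probe set minus its mean over the 6 lines, for the 13 probe sets above the bacterial controls on all 6 arrays; red is above the mean of the lines and blue below it. The black line parts the lines labelled FoxO-null (left) from those labelled wild-type (right). Both Fgfr2 probe sets are lowest on wild-type 1 (-0.94 and -0.83), both Fgfr3 probe sets are lowest on wild-type 2 (-0.53 and -0.40), and Erbb2 is lowest on FoxO-null 3 (-0.81).

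Fgfr4, an FGF receptor best known from liver and muscle, had 5 probe sets and none was above the control level on all 6 arrays. The brightest, 1427846_x_at, read 27.9, 20.5 and 69.0 in FoxO-null lines and 16.3, 48.1 and 30.8 in wild-type lines (log2 difference 0.20 ± 0.47, limma adjusted p 0.961). Probe sets with the suffix _x_at can also bind other transcripts of similar sequence. On 1418596_at the signal was 18.5, 21.0 and 15.9 in FoxO-null lines, all at or under the control level, and 20.3, 20.5 and 39.7 in wild-type lines, all above it. The bound from the control levels is 1.05-fold lower in the lines labelled FoxO-null (measured means 18.5 and 26.8, limma adjusted p 0.900), where the control level itself was higher. The groups overlapped, and the 95% interval of the limma fold was 0.411 to 1.44. Its log2 difference was -0.38, and -0.11 without wild-type 3. The other 3 lay between 0.777 and 39.96 with overlapping groups.

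Pdgfrb encodes a PDGF receptor of pericytes, smooth muscle and fibroblasts. On 1417148_at it read 5.99, 2.62 and 4.36 in FoxO-null lines and 1.35, 2.24 and 1.33 in wild-type lines. The groups did not overlap, but all 6 signals were under the control level, so no fold is given (limma adjusted p 0.808). On 1436970_a_at it read 3.29, 1.95 and 15.6 in FoxO-null lines and 0.952, 18.4 and 0.818 in wild-type lines, above the control level on wild-type 2 only. Of 11 pericyte and smooth muscle markers, 2 (Acta2 and Notch3) were above the control level on all 6 arrays and 4 on none, among them Kcnj8 and Higd1b. The summed signal of the 11 was 532 to 605 in FoxO-null lines and 562 to 569.5 in wild-type lines. Most of it came from Notch3 (299 to 393) and Acta2 (93.3 to 143). Pdgfra, the PDGF receptor of oligodendrocyte precursors, was well above the control level, at 377, 421 and 469 in FoxO-null lines and 430.4, 287 and 252 in wild-type lines (log2 difference 0.41 ± 0.18, limma adjusted p 0.660).

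**Figure D3:**
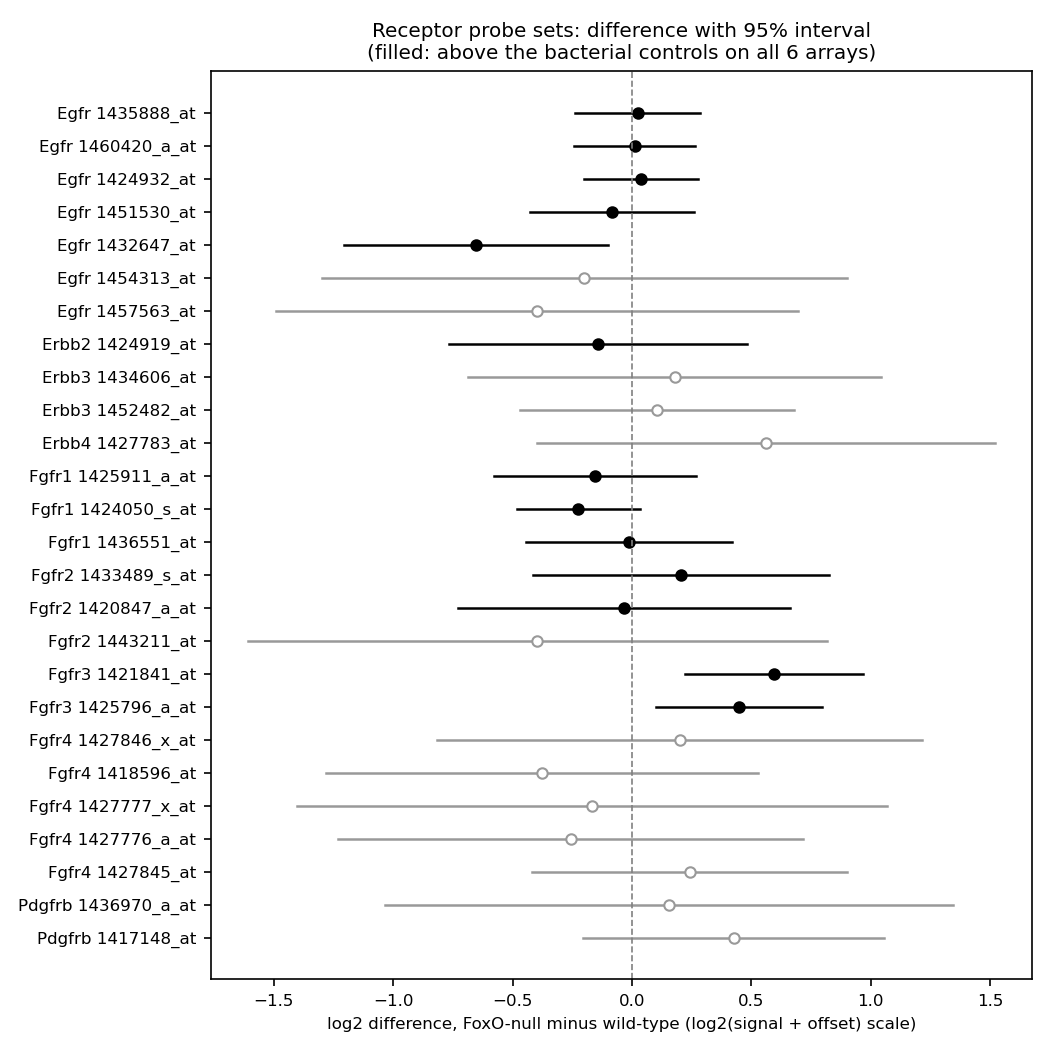
Log2 difference (FoxO-null minus wild-type, x axis) of the 26 receptor probe sets with its 95% interval from the limma fit; filled black points are the 13 probe sets above the bacterial controls on all 6 arrays and open grey points the other 13. The intervals of Egfr 1432647_at (below 0) and of both Fgfr3 probe sets (above 0) leave out 0 before adjustment, and none of the 26 passes after it.

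The genes around the receptors were read on 1 probe set each, the brightest. Of the ligands, 10 of 11 EGF family members and all 18 FGF genes listed were analysed. None passed in limma, where 0.00550% of all genes passed, all higher. An unadjusted limma p under 0.05 was reached by 1 EGF family gene, higher, and 0 FGF genes, where 4.72% of all genes were higher and 4.01% lower by that measure. The EGF family gene was the neuregulin gene Nrg3, at 15.6, 15.3 and 30.7 in FoxO-null lines and 5.04, 2.84 and 12.5 in wild-type lines; 1 of these 6 signals was above the control level. Egf followed, with a log2 difference of 0.65 ± 0.41 (limma adjusted p 0.792). Only 3 genes in each of the 2 ligand lists were above the control level on all 6 arrays: Tgfa, Hbegf and Nrg2, and Fgf1, Fgf4 and Fgf9. On FoxO-null 3, Nrg2 (28.4) and Fgf4 (28.3) were close to that level (26.9), as Fgf9 (28.2) was on FoxO-null 2 (27.6). Hbegf, an EGFR ligand, read 251, 264 and 197 in FoxO-null lines and 284, 182 and 205 in wild-type lines, with overlapping groups. The 2 FGF genes of smallest p, Fgf18 and Fgf8, were under the control level on every array. Of the 5 PDGF genes, Pdgfra had the smallest p and Pdgfa the next (0.33 ± 0.20, limma adjusted p 0.778).

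FGF co-receptors and accessory genes had a median log2 difference of 0.21, against 0.026 over all genes. None of the 14 passed in limma, and 3 had an unadjusted p under 0.05, 2 higher and 1 lower, against 4.72% and 4.01% of all genes. Fgfbp3, which encodes a carrier that releases FGFs from the matrix, read 289, 236 and 331 in FoxO-null lines and 86.7, 189 and 116 in wild-type lines. All 3 lines labelled FoxO-null were above all 3 labelled wild-type, and the lowest line was wild-type 1 (log2 difference 1.15 ± 0.23, limma adjusted p 0.215). Sdc1, a heparan sulfate proteoglycan of the cell surface, read 147, 126 and 137 in FoxO-null lines and 173.5, 194 and 175 in wild-type lines (-0.39 ± 0.14, limma adjusted p 0.582). Groups did not overlap in 6 of the 14, 5 higher and 1 lower, where 7.76% of all genes were higher and 6.60% lower by that measure.

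The listed genes of ErbB inhibition and receptor turnover were all above the control level. Of 12, none passed in limma and 1 was higher at an unadjusted p under 0.05, which is 8.33% against 4.72% of all genes. It was Lrig1, a membrane protein that promotes ErbB receptor breakdown. It read 1132, 1099 and 897 in FoxO-null lines and 774, 880.4 and 839 in wild-type lines, without overlap (log2 0.32 ± 0.12, limma adjusted p 0.601). The endophilin gene Sh3gl2, which acts in receptor endocytosis, was next, at 0.22 ± 0.13 (limma adjusted p 0.781). Median differences were 0.049 for this list, 0.16 for 14 receptor adaptors and 0.016 for the 7 Ras-ERK genes analysed of 13 listed, and none of these genes passed. The adaptor genes of smallest p were Grb7, under the control level on all 6 arrays, and Gab1, at 0.29 ± 0.13 (limma adjusted p 0.700). In the cascade they were the MEK genes Map2k1, at -0.15 ± 0.10, and Map2k2, at -0.17 ± 0.14 (limma adjusted p 0.808 and 0.849).

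FGF and ERK feedback inhibitors, which ERK signalling itself induces, were the only pathway list with a negative median, -0.19. The difference was positive in 2 of its 10 genes and negative in 8, where 53.7% of all genes had a positive difference. None passed in limma, and 3 were lower at an unadjusted p under 0.05, where 4.01% of all genes were. The ERK phosphatase gene Dusp6 read 472, 620 and 398 in FoxO-null lines and 750.1, 831 and 1007 in wild-type lines, without overlap (log2 difference -0.80 ± 0.16, limma adjusted p 0.215). Dusp4, of the same family, read 227, 213 and 196 in FoxO-null lines and 304, 315 and 364 in wild-type lines (-0.61 ± 0.13, limma adjusted p 0.231). Spry1 was the third. Spry2 was positive, at 0.13.

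**Figure D4:**
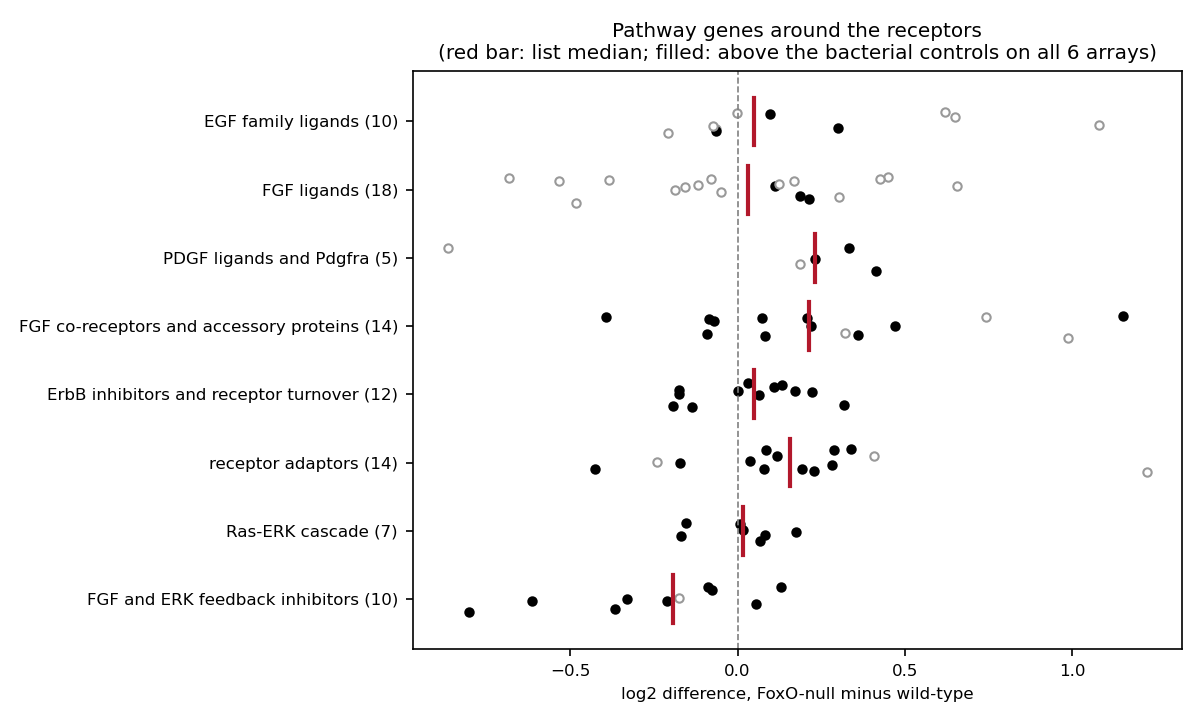
Log2 difference (FoxO-null minus wild-type, x axis) of each pathway gene on its brightest probe set, by list, with the number of genes analysed in brackets. Filled points are genes above the bacterial controls on all 6 arrays and the red bar is the list's median, which is -0.19 for the feedback inhibitors and between 0.016 and 0.23 for the other lists.

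The genes whose levels over the 6 lines were most like each detected receptor were looked up among 11997 candidates, by Pearson's r of log2 values. Each r is the highest of that many over 6 points and is a description only. For Fgfr3 they were Tmem167b (r 0.996), Mfhas1 (0.995) and Tm2d3 (0.989). Egfr had Xpo7 (0.974), Pip4p2 (0.973) and Cfi (0.971), and Erbb2 had Med30 (0.994), Tm2d1 (0.993) and Fancg (0.993). The Egfr match rests on 1435888_at, whose pattern over the 6 lines was not shared by 2 other bright Egfr probe sets (r -0.87 with 1424932_at and -0.43 with 1460420_a_at). Fgfr1 had Snx1 (0.983), Atp4b (0.983) and Epas1 (0.982), and Fgfr2 had Igsf3 (0.989), Tmem200c (0.988) and Sntb2 (0.987). No gene was among the first 3 of more than 1 receptor.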

How the data were processed

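Total RNA of 6 lines was hybridised to Affymetrix arrays. The deposited values are linear intensity signals made with MAS5 (version not given in the sources used here), per the submitters' processing notes. The 2%-trimmed mean was 100 to 100.001 on every array and the medians differed by at most 1.29 times, so the authors' scaling was kept. The number of arrays limits the precision.

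Here log2 of the signal plus 5.94 (its 20th percentile) was fitted for all 45037 non-control probe sets, without a filter on low signals, with limma 3.58.1 (lmFit, then eBayes with a trend on intensity; R 4.3.3). Folds are on that scale, which understates changes of weak genes. The test was two-sided, with Benjamini-Hochberg adjustment over all probe sets and no covariates. For pathway lists each gene had its probe set of highest mean log2 value. Of the 26 receptor probe sets, 17 had a mean above the 40th percentile.

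The members, lists and tests were chosen with earlier results of these data known. All receptor probe sets are named. From each pathway list the 2 genes of smallest p are named, or up to 4 that passed. For each receptor above the control level on all 6 arrays the 3 genes of highest r are named, without clone or predicted names. Others in the text (Hbegf, Spry1, Spry2, Tgfa, Nrg2, Fgf1, Fgf4, Fgf9) were chosen after their values were seen. Markers named singly from the oligodendrocyte, neural stem and pericyte lists were picked without a rule, with their values known. A fold against a group at or under the control level on its 3 arrays is a lower bound: the geometric mean of the brighter group over that of the other group's control levels, or its own signals where higher. On simulated arrays set up as the FoxO-null against wild-type comparison, over 45037 probe sets, 18.4% of probe sets changed 2-fold and 59.6% of those changed 4-fold were called. Alternatives were 14: offsets of 1 and 16, median centring, quantile normalization, a filter on low signals, 1 probe set per gene with that filter, no trend, the replicate number as a block, and each line left out.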

Additional observations from a re-analysis of the deposited data

How the results depend on the processing

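No receptor probe set and no pathway gene passed the adjusted threshold of limma under any of the 14 alternatives. Over the array, 1 of 45037 probe sets passed, against 5 of 12665 with 1 probe set per gene and the filter. At an unadjusted p under 0.05, 2 receptor probe sets were higher and 1 lower; there was 1 higher with median centring or no trend, and 1 higher and 0 lower with 1 probe set per gene and the filter together. With a line left out, 1 to 2 were higher and 0 to 3 lower: 1 higher if FoxO-null 1 or either of wild-type 2 and 3 was dropped, 3 lower if wild-type 1 was dropped, and 0 lower if FoxO-null 3 or either of wild-type 2 and 3 was dropped. Groups did not overlap in 2 higher and 2 lower; higher there was 1 with median centring or with the filter alone, and lower there was 1 with quantile normalization, and both were 0 with 1 probe set per gene and the filter together. With a line left out 2 to 5 were higher and 2 to 4 lower, where fewer lines overlap less often by construction; the higher count was 4 on dropping FoxO-null 1, 5 on dropping FoxO-null 3 and 4 on dropping wild-type 3, and the lower count 4 on dropping FoxO-null 2. The filter alone removed Pdgfrb 1417148_at. With 1 probe set per gene, Fgfr3 1425796_a_at, Egfr 1432647_at, Fgfr1 1424050_s_at and Pdgfrb 1417148_at were left out, as none is its gene's brightest. The cause of the other shifts was not tested.

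Both Fgfr3 probe sets, Egfr 1432647_at and Fgfr1 1424050_s_at kept their direction under every alternative that included them. So did Erbb3 1434606_at, Erbb4 1427783_at, Fgfr2 1443211_at, Fgfr4 1418596_at, Fgfr4 1427845_at and Pdgfrb 1417148_at. None of the latter was above the control level on every array. The filter, the choice of probe set per gene, leaving out the trend and the replicate block cannot change a log2 difference. A kept direction under those alternatives was therefore built in. With median centring, Egfr 1435888_at, 1460420_a_at and 1424932_at turned to -0.044, -0.057 and -0.030. With 1 line left out the log2 difference of 15 probe sets changed sign at least once. The ranges were -0.073 to 0.10 for Egfr 1435888_at, -0.040 to 0.081 for 1460420_a_at, -0.21 to 0.025 for 1451530_at, -0.48 to 0.25 for 1454313_at and -0.73 to 0.038 for 1457563_at. They were -0.33 to 0.23 for Erbb2 1424919_at, -0.0096 to 0.19 for Erbb3 1452482_at, -0.44 to 0.021 for Fgfr1 1425911_a_at and -0.080 to 0.070 for Fgfr1 1436551_at. For Fgfr2 1433489_s_at the range was -0.21 to 0.43 and for 1420847_a_at -0.46 to 0.23. For Fgfr4 1427846_x_at, 1427777_x_at and 1427776_a_at the ranges were -0.24 to 0.51, -0.78 to 0.15 and -0.68 to 0.062, and for Pdgfrb 1436970_a_at -0.29 to 0.77.

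Lines with the same number did not deviate together in every pair (correlations 0.014, 0.064 and 0.105), and not every line correlated best with its own number, so the numbers were not taken as pairs. With the replicate number as a block 0 probe sets passed over the array. The block cannot change a log2 difference in this design, so that of Fgfr3 1421841_at was again 0.59, with a limma adjusted p of 0.417. Signals near the bacterial controls limit what can be said of Erbb3, Erbb4, Fgfr4 and Pdgfrb.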
